A study of Mus musculus with 6 samples.

Results

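The acute phase genes Saa3, Lcn2, Hp and Ptx3 and the formyl peptide receptor genes Fpr1 and Fpr2 were followed in mouse brain cells isolated with beads against O4. The donors had experimental autoimmune encephalomyelitis (EAE) or, for the comparison, had received ovalbumin (OVA). The genes are 6 of 55298 in the deposited table and 6 of 18161 with a mean high enough to be tested. All 6 were chosen by name from a family of known function, with the difference between EAE and OVA in these samples already known. Their differences between the groups are therefore given as a description, with no p-value. O4 is a surface antigen of late oligodendrocyte precursors and oligodendrocytes, and the labels call the cells oligodendrocytes. EAE was induced by immunisation with residues 35 to 55 of myelin oligodendrocyte glycoprotein (MOG), and all mice carried the strain label c56Bl/6j and were killed when disease was at its maximum. The 3 EAE samples are pools of 2 mice each. OVA replicates 1 and 3 hold 1 mouse each and OVA replicate 2 holds 2. Age and sex are not given, and no untreated mice were analysed here.

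Each value is a regularised logarithm (rlog) of a gene's read count on a log2 scale, so a difference of 1 is a 2-fold difference, and weakly expressed genes are drawn towards their own mean. The depth of the libraries is unknown. Oligodendrocyte markers were high in every library, with Mbp, myelin basic protein, at 17.65, 17.70 and 17.73 in EAE and 17.25, 17.56 and 16.87 in OVA. Markers of other brain cells and of leukocytes were present too. OVA replicate 3 stood apart, with all 14 neutrophil markers, all 5 B cell markers and all 7 red cell markers higher there than in both other OVA samples. The same held for all 12 monocyte and macrophage markers and all 6 choroid plexus markers. It also held for all 9 pericyte, smooth muscle and fibroblast markers and 10 of 12 endothelial markers. Xist, which coats the silenced X chromosome and is named after its values were seen, stood at 13.51, 13.56 and 14.16 in EAE and at 7.39, 7.63 and 7.62 in OVA. The Y-linked Ddx3y stood at 10.18, 10.17 and 9.44 in EAE and at 11.46, 11.38 and 11.29 in OVA. For every result that follows, the immunisation and a different mix of sexes in the pools cannot be told apart.

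Acute phase proteins are secreted proteins whose synthesis rises in inflammation, most of them in liver and some in macrophages, neutrophils, endothelium and glia. Saa3 encodes a serum amyloid A made mainly outside the liver. Lcn2 encodes lipocalin 2, which binds bacterial siderophores and is stored in the specific granules of neutrophils. Hp encodes haptoglobin, which binds free haemoglobin, and Ptx3 a long pentraxin that binds microbes and complement. Fpr1 and Fpr2 encode G protein-coupled receptors of phagocytes that sense formylated peptides of bacteria and mitochondria. Fpr2 also responds to serum amyloid A and annexin A1.

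The sequence upstream of 5 of the 6 genes, all but Hp, was in the RefSeq promoter table of build GRCm38.p6. Starts are those of RefSeq, which can differ from the GENCODE spans given with each gene. The Lcn2 window lies inside the GENCODE span of Lcn2, and the Saa3 and Fpr1 windows reach into theirs. The motif TTGCNNAA of C/EBP factors, which act on many acute phase genes, lay within 250 bases before the RefSeq start of Saa3, Lcn2 and Ptx3, searched on both strands. It was in 9.56% of all 32851 promoter windows of this length. The windows of Saa3, Lcn2 and Ptx3 are shown because they hold that match, and that of Fpr2 because it holds other matches. Capitals mark the C/EBP match in the first 3 and every match in Fpr2, and in Lcn2 also a GAGGAA motif of PU.1 near the start. The letters run 5′ to 3′ on the gene's own strand, for Saa3 at chr7:46715677-46715926 (minus), Lcn2 at chr2:32387740-32387989 (minus), Ptx3 at chr3:66219637-66219886 (plus) and Fpr2 at chr17:17887574-17887823 (plus).
Saa3: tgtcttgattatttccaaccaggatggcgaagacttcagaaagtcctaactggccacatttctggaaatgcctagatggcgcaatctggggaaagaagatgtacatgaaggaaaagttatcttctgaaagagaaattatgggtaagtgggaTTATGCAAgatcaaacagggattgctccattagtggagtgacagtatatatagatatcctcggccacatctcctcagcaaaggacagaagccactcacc
Lcn2: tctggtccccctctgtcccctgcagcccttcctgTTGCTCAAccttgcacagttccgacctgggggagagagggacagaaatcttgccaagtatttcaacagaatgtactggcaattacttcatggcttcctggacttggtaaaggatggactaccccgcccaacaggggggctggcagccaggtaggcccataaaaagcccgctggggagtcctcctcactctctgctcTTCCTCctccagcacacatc
Ptx3: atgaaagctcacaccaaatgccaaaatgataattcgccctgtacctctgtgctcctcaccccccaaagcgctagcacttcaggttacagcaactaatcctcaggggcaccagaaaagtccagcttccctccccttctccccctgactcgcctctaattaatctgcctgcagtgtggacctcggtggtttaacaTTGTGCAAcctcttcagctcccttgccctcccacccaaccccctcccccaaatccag
Fpr2: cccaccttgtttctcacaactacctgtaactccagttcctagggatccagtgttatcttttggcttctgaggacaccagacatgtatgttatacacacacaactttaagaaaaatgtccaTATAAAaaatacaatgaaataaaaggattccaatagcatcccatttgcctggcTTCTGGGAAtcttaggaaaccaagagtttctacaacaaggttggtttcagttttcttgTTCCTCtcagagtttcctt

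The Saa3 match TTATGCAA covers the bases 99 to 92 before the start, the Lcn2 match TTGCTCAA the bases 216 to 209, and the Ptx3 match TTGTGCAA the bases 57 to 50. The windows of Fpr1 and Fpr2 had no C/EBP match of these letters. Fpr2 held the STAT motif TTCNNNGAA, found in 7.02% of all windows, and the PU.1 motif GAGGAA, found in 23.3%, read on the other strand as TTCCTC. Fpr1 and Fpr2 each held a TATAAA, found in 12.4% of windows, at 227 to 222 and at 130 to 125 bases before the start. None of the 5 windows matched the kappaB consensus, which 7.25% of all windows did. No match overlapped another. These are letter matches in short windows and were not tied to binding.

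Saa3 (ENSMUSG00000040026.8, chromosome 7, 46711998 to 46715700) showed the widest separation of the 6 genes. Its rlog values were 10.02, 9.83 and 9.39 in the EAE pools and 6.01, 6.10 and 6.29 in the OVA samples. The lowest EAE pool lay more than 3 units above the highest OVA sample. The means were 9.75 ± 0.32 in EAE and 6.13 ± 0.14 in OVA (SD, n = 3 each), a difference of 3.62 ± 0.17 (SE of the fit over all genes), or 12.3-fold. It was the 4th largest increase among all tested genes, and leaving out any 1 sample kept it between 3.48 and 3.79.

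Lcn2 (ENSMUSG00000026822.14, chromosome 2, 32384633 to 32388252) went the other way. Its values were 11.37, 11.78 and 10.35 in EAE and 11.93, 12.49 and 12.93 in OVA. All EAE pools lay below all OVA samples, with EAE replicate 2 close below OVA replicate 1. The means were 11.17 ± 0.73 in EAE and 12.45 ± 0.50 in OVA (SD, n = 3 each), a difference of -1.28 ± 0.38 (SE), or 2.43-fold lower in EAE. Without OVA replicate 3 the difference was -1.04 ± 0.37. Leaving out any 1 sample put it between -1.59 (EAE replicate 2) and -0.88 (EAE replicate 3).

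Hp (ENSMUSG00000031722.10, chromosome 8, 109575128 to 109579172) had values of 10.17, 10.01 and 9.58 in EAE and 8.38, 8.72 and 10.75 in OVA. OVA replicate 3 was the highest of all 6 samples, while the other OVA samples lay below every EAE pool. The means were 9.92 ± 0.31 in EAE and 9.29 ± 1.28 in OVA (SD, n = 3 each), and the difference of 0.63 ± 0.56 (SE) was within the spread of the OVA samples. Without OVA replicate 3 it was 1.37 ± 0.18, or 2.58-fold. Leaving out any 1 sample put it between 0.18 (OVA replicate 1) and 1.37 (OVA replicate 3).

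Ptx3 (ENSMUSG00000027832.5, chromosome 3, 66219910 to 66225805) was low throughout, at 5.15, 4.76 and 4.78 in EAE and 4.38, 4.49 and 4.68 in OVA. The groups did not overlap, but EAE replicate 2 lay close above OVA replicate 3. The means were 4.90 ± 0.22 in EAE and 4.52 ± 0.15 in OVA (SD, n = 3 each). The difference was 0.38 ± 0.13 (SE), or 1.30-fold, and 0.46 ± 0.13 without OVA replicate 3. Leaving out any 1 sample put it between 0.25 (EAE replicate 1) and 0.46 (OVA replicate 3). The rlog shrinks differences of weakly expressed genes, here by an unknown amount.

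**Figure D1:**
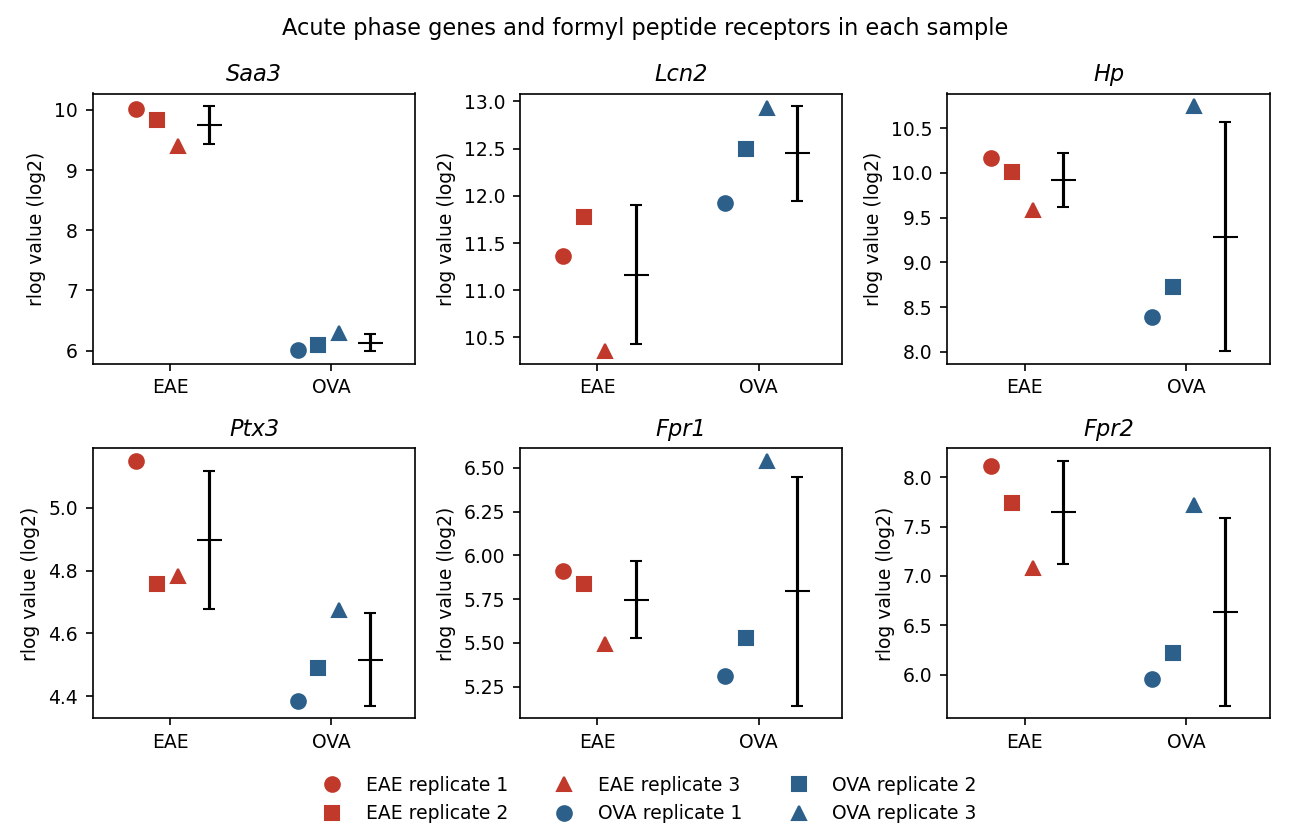
Each panel shows 1 gene's rlog value (log2, y axis with its own range) in the 3 EAE pools and the 3 OVA samples, with the mean and SD of each group in black. Saa3 is separated by more than 3 units, Lcn2 is lower in EAE, and OVA replicate 3 (blue triangle) is the highest OVA sample in all 6 panels.

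The receptor genes lie head to head on chromosome 17, with 3884 bases between their starts. Fpr2 (ENSMUSG00000052270.7, 17887824 to 17893952, plus strand) had values of 8.12, 7.74 and 7.09 in EAE and 5.96, 6.22 and 7.72 in OVA. OVA replicate 3 stood among the EAE pools and the other OVA samples below them. The means were 7.65 ± 0.52 in EAE and 6.63 ± 0.95 in OVA (SD, n = 3 each). The difference was 1.01 ± 0.47 (SE), or 2.02-fold, and 1.56 ± 0.27, or 2.95-fold, without OVA replicate 3. Leaving out any 1 sample put it between 0.68 (OVA replicate 1) and 1.56 (OVA replicate 3).

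Fpr1 (ENSMUSG00000045551.7, 17876471 to 17883940, minus strand) had values of 5.91, 5.84 and 5.49 in EAE and 5.31, 5.53 and 6.54 in OVA. The groups overlapped, and the highest value was again that of OVA replicate 3. Means of 5.75 ± 0.22 in EAE and 5.79 ± 0.66 in OVA (SD, n = 3 each) lay within the spread of the samples. The difference was -0.05 ± 0.30 (SE) with all samples, -0.29 without OVA replicate 1 and 0.33 ± 0.14 without OVA replicate 3. Its sign was not stable, as it was also above 0 without EAE replicate 3 (0.08) and when samples were weighted by their number of mice (0.02). Of the exon bases of Fpr2, 48 of 1296 are shared with Fpr3 on the same strand, and the sources used here do not say how reads there were assigned.

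In the limma fit over all genes, 1 of the 6 genes, Saa3, was called higher in EAE at an adjusted p under 0.05, beside 1.72% of all tested genes (312 of 18161). Of the 6, 0 were called lower, beside 0.666% of all tested genes (121), and 3 had an unadjusted p under 0.05 in either direction, beside 1665 higher and 1298 lower among all 18161. All EAE pools lay above all OVA samples for 2 of the 6, beside 12.1% of tested genes, and below them for 1, beside 10.8%. Without OVA replicate 3, 3 of the 6 were called higher, namely Saa3, Hp and Fpr2, beside 4.68% of all tested genes, and 0 lower, beside 1.91%. Nothing is read from these shares, since the genes were named with this contrast known.

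**Figure D2:**
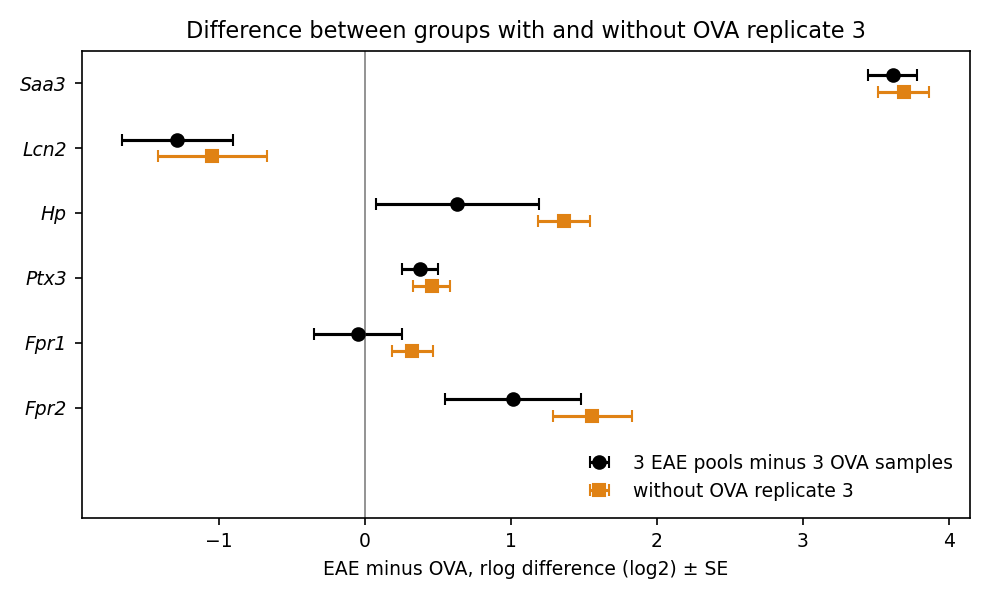
The x axis gives the EAE minus OVA difference in rlog value (log2) with its SE for each gene, from all 6 samples (black circles) and without OVA replicate 3 (orange squares). With all samples and without OVA replicate 3, Saa3 is at 3.62 and 3.69, Hp at 0.63 and 1.37, and Fpr2 at 1.01 and 1.56.

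All 6 genes had the same order among the OVA samples, highest in replicate 3, then 2, then 1. This order held for 26.2% of all tested genes, and OVA replicate 3 was the highest of its group for 40.2%. Its excess over the mean of the other OVA samples was 2.20 for Hp, 1.64 for Fpr2, 1.12 for Fpr1, 0.72 for Lcn2, 0.24 for Ptx3 and 0.23 for Saa3. An excess of at least 1, seen for 3 of the 6, was found for 226 of the 18161 tested genes. Among the EAE pools, replicate 3 was the lowest for 5 of the 6, Ptx3 being the exception, beside 34.2% of tested genes. The order of samples within a group was thus largely the same for the acute phase genes and the receptors.

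All 14 neutrophil markers and all 12 monocyte and macrophage markers were highest in OVA replicate 3 among the OVA samples, as were all 6 genes. The median neutrophil marker was 2.70 higher in OVA replicate 3 than in the mean of the remaining OVA samples. Of 14 markers limma called 0, with 1 at an unadjusted p under 0.05, at a median difference of -0.92, against 0.03 without OVA replicate 3. S100a8, an alarmin of neutrophils and monocytes, stood at 10.29, 10.14 and 9.30 in EAE and 9.54, 10.18 and 13.07 in OVA, and S100a9 at 11.29, 11.22 and 10.44 against 10.82, 11.44 and 14.42. The surface marker Ly6g was low, at 4.21, 4.47 and 4.18 in EAE and 4.52, 4.30 and 6.47 in OVA. Summed over the list, the level on the log2 scale was between 11.77 and 12.58 in EAE and between 12.18 and 15.82 in OVA, and no marker was at 0. Hp and the formyl peptide receptors are known in neutrophils, and the part of these cells in their values was not tested. In bulk RNA, fewer cells of a type and less RNA per cell cannot be told apart.

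Some genes of neutrophil specific granules had the same order of samples as Lcn2. Ltf, lactoferrin, stood at 8.25, 8.73 and 7.60 in EAE and 8.79, 9.37 and 13.10 in OVA. Ngp, neutrophilic granule protein, stood at 8.42, 8.73 and 7.88 in EAE and 9.23, 9.60 and 13.63 in OVA. Camp, the cathelicidin whose peptide is a ligand of Fpr2, stood at 6.25, 6.64 and 5.81 in EAE and 6.78, 7.14 and 11.42 in OVA. In all 4 genes EAE replicate 2 was the highest pool and replicate 3 the lowest, OVA replicate 3 was the highest OVA sample and replicate 1 the lowest, and every EAE pool lay below every OVA sample. That combination, noticed in these values, held for 79 of 18161 tested genes (0.435%). Of the 14 neutrophil markers only Ltf and Ngp showed it, and the groups overlapped for 11. The granule genes Mmp8 and Cd177 had EAE replicate 1 as the highest pool, and the groups overlapped for Mmp8. The excess of OVA replicate 3 differed in size, at 0.72 for Lcn2 and 4.21 for Ngp, and limma called Ngp lower without that sample, at a difference of -1.07, but not with it, at -2.47 ± 1.04 (SE; adjusted p = 0.298).

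**Figure D3:**
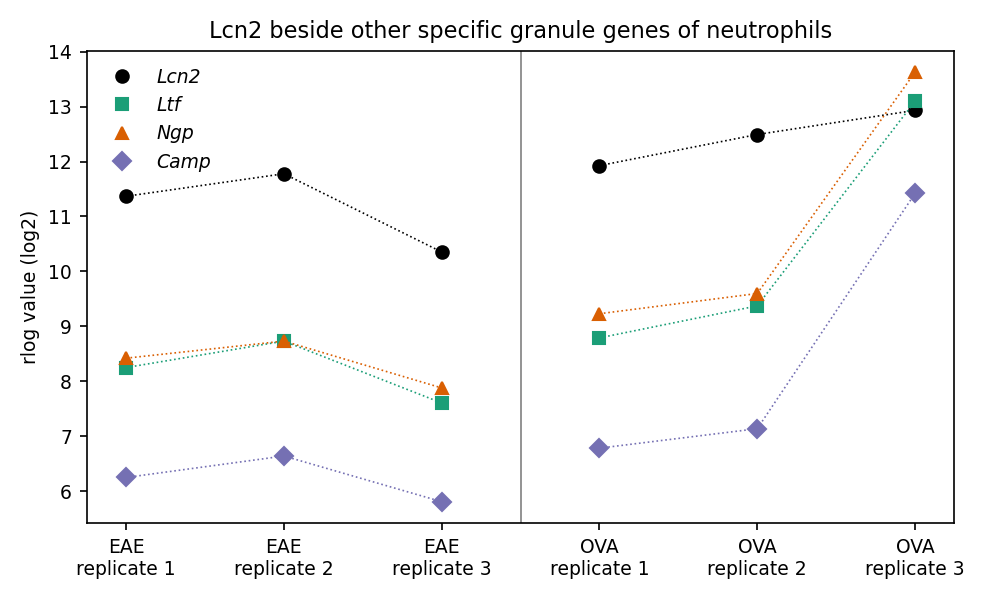
The y axis gives the rlog value (log2) of Lcn2, Ltf, Ngp and Camp in each EAE pool (left) and OVA sample (right), and dotted lines join samples of 1 group to help the eye. All 4 genes share the order of samples, but the step to OVA replicate 3 is smaller in Lcn2 than in the others.

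Relatives of Saa3 and of the receptors were too low to be tested. The serum amyloid A cluster on chromosome 7 spans 42316 bases, and Saa1 and Saa2, the amyloids known mainly from liver, lay between 1.19 and 1.27 and between 0.52 and 0.56 over the 6 samples. Saa4 did not exceed -0.16. In the formyl peptide receptor family, Fpr3, Fpr-rs3, Fpr-rs4, Fpr-rs6 and Fpr-rs7 were listed at 0 in every sample. None of the nearest tested protein-coding neighbours of the 6 genes, Fpr1 and Fpr2 among them, passed the test. Saal1, which lies 1317 bases from Saa3, had a mean of 8.89 ± 0.08 in EAE and 8.89 ± 0.22 in OVA (SD, n = 3 each; limma adjusted p = 0.999).

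Acute phase proteins known mainly from liver did not pass the test. Of 22 on the list, 6 were listed at 0 in every sample, 9 more had a mean under the minimum for testing, and 7 were tested. Of these limma called 0, with 1 at an unadjusted p under 0.05, at a median difference of 0.07, beside -0.0024 over all tested genes. Itih3, a chain that binds hyaluronan, stood at 12.68, 12.09 and 12.31 in EAE and 13.75, 13.08 and 12.58 in OVA (limma adjusted p = 0.231), and passed as lower without OVA replicate 3 (adjusted p = 0.0323). The copper carrier ceruloplasmin, Cp, differed by -0.43 ± 0.19 (SE; limma adjusted p = 0.328).

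Of 13 ligands, receptors and partners of the 6 proteins, 1 rose and 0 fell, at a median of 0.11. Tlr2, a Toll-like receptor that also responds to serum amyloid A, stood at 11.52, 11.45 and 11.08 in EAE and 9.79, 9.63 and 10.14 in OVA. It rose 2.83-fold (limma adjusted p = 0.00806). It passed in 4 of the 6 fits that left out 1 sample, the exceptions being those without replicate 2 of either group, and the highest adjusted p was 0.0549. Anxa1, annexin A1, overlapped between the groups at 9.96, 9.83 and 9.40 in EAE and 9.05, 9.64 and 11.48 in OVA. Slc22a17, a receptor for lipocalin 2, differed by 0.11 ± 0.10 and Cd163, which takes up haptoglobin bound to haemoglobin, by -0.40 ± 0.14 (SE; limma adjusted p = 0.618 and 0.209).

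Several cytokines that are known to induce acute phase genes were higher in the EAE pools. Of 9 tested, 5 rose and 0 fell, at a median of 0.75, and all 9 lay above 0. Il1a, interleukin 1 alpha, stood at 11.38, 10.83 and 10.35 in EAE and 9.52, 8.88 and 9.11 in OVA and rose 3.21-fold (limma adjusted p = 0.0244). Il1b rose 2.77-fold (0.0439), Tnf 2.68-fold (0.0115) and Lif 1.68-fold (0.0317). The other was Il17a, which rose by 0.34 near the minimum level, at 3.67, 3.76 and 3.64 in EAE against 3.35, 3.36 and 3.36 in OVA (limma adjusted p = 0.0207). EAE replicate 3 was the lowest pool for 8 of the 9, beside 34.2% of all tested genes. OVA replicate 3 was the highest OVA sample for 4 of the 9, Il1b, Tnf, Il6 and Osm, beside 40.2%. It was not the highest for Il1a, Lif and Il17a, which were called. Leaving out EAE replicate 1 gave 1 call, leaving out OVA replicate 1 gave 2, and leaving out replicate 2 of either group gave 0. With no intensity trend 3 passed.

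Of 11 receptors of these cytokines 1 rose and 0 fell, at a median of -0.13. The 1 was Tnfrsf1b, a receptor of tumour necrosis factor, which rose 1.72-fold (limma adjusted p = 0.0319), and of the fits that left out 1 sample it passed only in those without replicate 3 of either group. Csf3r, the receptor of granulocyte colony-stimulating factor, stood at 11.87, 11.97 and 11.69 in EAE and 11.56, 11.34 and 11.54 in OVA (limma adjusted p = 0.12). Of 14 transcription factors and feedback genes of the acute phase, 2 rose, 0 fell and 13 lay above 0, at a median of 0.23. Cebpb, C/EBP beta, stood at 10.24, 9.73 and 9.40 in EAE and 8.51, 8.58 and 8.78 in OVA and rose 2.25-fold (limma adjusted p = 0.031). Stat3, which carries the signal of interleukin 6 and its relatives, rose 1.44-fold (0.0381). Leaving out replicate 1 or 2 of either group gave 0 calls, and leaving out replicate 3 of either group gave 4. With no filter on low values 1 passed.

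Downstream of the formyl peptide receptors, 2 of 19 genes for signalling, migration and the phagocyte oxidase rose, 0 fell, and the median was 0.32. Cyba, a membrane subunit of the oxidase, stood at 11.15, 10.67 and 10.57 in EAE and 9.29, 9.21 and 10.09 in OVA and rose 2.40-fold (limma adjusted p = 0.0495). Vav1, an exchange factor for Rac, rose 1.63-fold (0.0392). Without OVA replicate 3, 10 of the 19 were called higher, whereas leaving out replicate 1 or 2 of either group gave 0 calls and leaving out EAE replicate 3 gave 1. With all samples, the count was 0 with no filter on low values, 1 with a minimum mean of 5, 1 with no intensity trend and 4 with samples weighted by their number of mice. OVA replicate 3 was the highest OVA sample for 15 of the 19. Of 10 other chemoattractant receptors of phagocytes, 3 rose and 0 fell, at a median of 0.54. These were Ptafr, the receptor of platelet-activating factor, at 2.31-fold (limma adjusted p = 0.0258), the complement receptor C3ar1 at 1.85-fold (0.0234) and the chemerin receptor Cmklr1 at 1.75-fold (0.0288). The count was 1 when OVA replicate 1 was omitted, and 0 when EAE replicate 1 or replicate 2 of either group was.

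**Figure D4:**
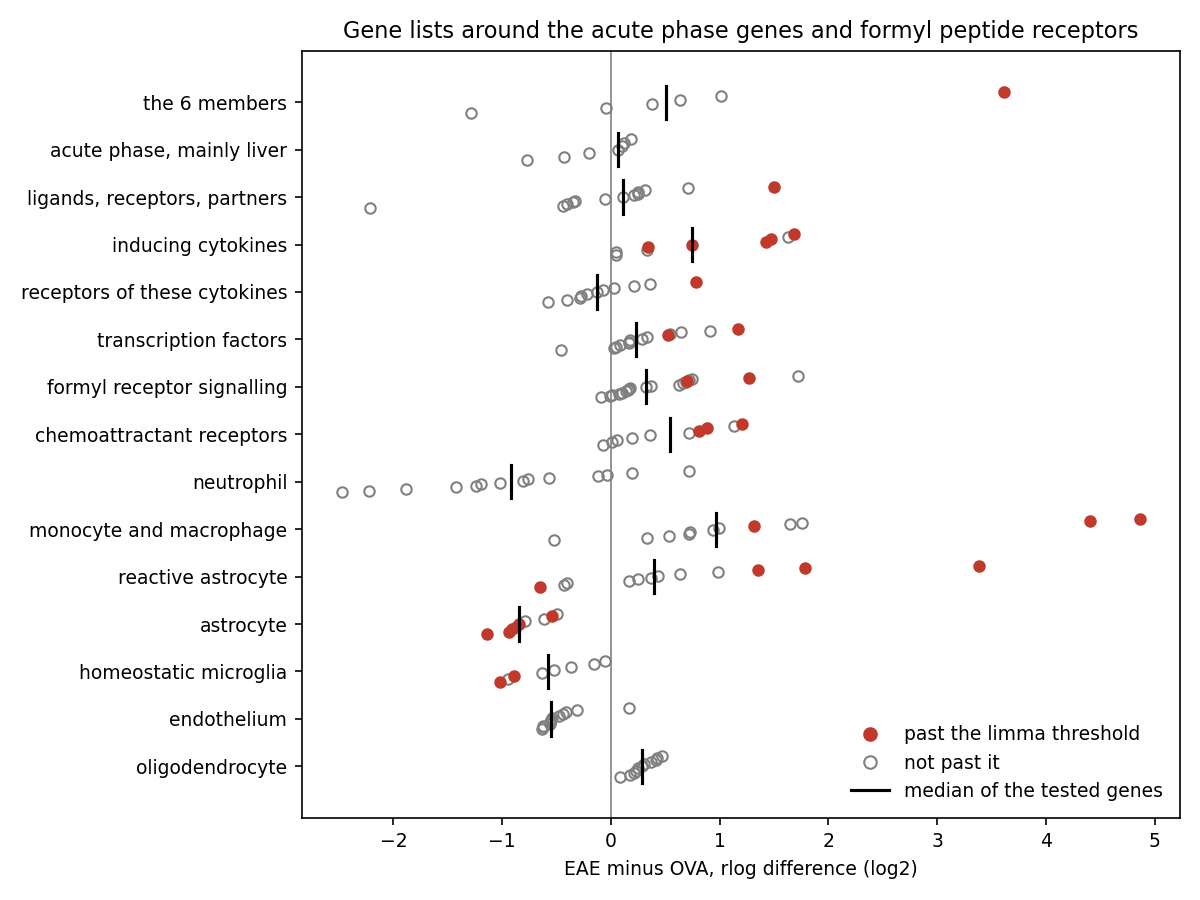
Each point is 1 tested gene, placed by its EAE minus OVA difference in rlog value (log2), and the short vertical line is the median of its list. Red points passed the limma threshold and open points did not. Inducing cytokines and monocyte markers lie mostly to the right, with medians of 0.75 and 0.97, and neutrophil markers mostly to the left, with a median of -0.92.

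Markers of cell types that can make these proteins differed between the groups as well. Of 12 monocyte and macrophage markers 3 rose and 0 fell, at a median of 0.97, and OVA replicate 3 was the highest OVA sample for all 12. Arg1, Gpnmb and Cd14 passed, at differences of 4.86, 4.40 and 1.32 (limma adjusted p = 0.0085, 0.000398 and 0.0246), and without OVA replicate 3, 10 of the 12 passed. Leaving out replicate 2 of either group gave 1 call, and leaving out replicate 1 of either group gave 2. The summed level of the list was 15.15 to 15.60 in EAE and 13.20 to 14.75 in OVA on the log2 scale. Of 12 reactive astrocyte markers 3 rose and 1 fell, at a median of 0.40, with the summed level at 15.04 to 15.70 in EAE and 14.42 to 14.83 in OVA. They were Serpina3n (3.39, limma adjusted p = 0.0067), Gbp2 (1.78, 0.0297) and Gfap (1.35, 0.00446), and the small heat shock protein gene Hspb1, which fell by 0.65 (0.0204). Leaving out EAE replicate 2 gave 1 increase, leaving out OVA replicate 3 gave 6, and Hspb1 passed in no fit that left out 1 sample other than OVA replicate 3. No marker of either list was at 0, and the part of these cells in the values of the 6 genes was not tested.

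The remaining cell type lists were counted in the same way. Of 9 astrocyte markers 5 fell and 0 rose (median -0.85), and of 8 homeostatic microglia markers 2 fell and 0 rose (median -0.58). The astrocyte count was 7 without OVA replicate 3 and between 0 and 3 when any other sample was left out. The microglia count was 0 when replicate 1 or 2 of either group was left out, whereas leaving out EAE replicate 3 gave 4 and leaving out OVA replicate 3 gave 3. Of 8 T cell markers 4 rose and 0 fell (median 0.54), with 7 without OVA replicate 3 and between 1 and 2 in the other fits without 1 sample. Limma called 0 of 12 endothelial, 9 mural and fibroblast, 6 choroid plexus, 11 oligodendrocyte, 5 B cell and 7 red cell markers, with 5, 2, 0, 1, 0 and 0 of them at an unadjusted p under 0.05. Their medians were -0.55, -0.32, -0.12, 0.28, -0.49 and -0.46. Endothelium is a known source of Lcn2 in inflamed brain, and Vwf, its clotting factor gene, differed by -0.56 ± 0.16 (SE; limma adjusted p = 0.139). It was the only 1 of the 12 endothelial markers whose groups did not overlap, and its order of samples was that of Lcn2. Of the 12, 5 had the EAE order of Lcn2, beside 15.6% of all tested genes, and 7 had EAE replicate 1 as the lowest pool. The part of endothelium in the values of Lcn2 was not tested. The leukocyte antigen Ptprc stood at 11.88, 11.87 and 11.66 in EAE and 11.26, 11.12 and 11.76 in OVA (limma adjusted p = 0.249).

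The genes most like each of the 6 were found by the root mean square (RMS) difference over the 6 samples, after each gene's own OVA mean was subtracted, among 14768 protein-coding genes. They partly reflect how many genes move by a like amount and are a description. Saa3 was most like Cxcl9, a chemokine induced by interferon gamma, at an RMS of 0.12, then Ly6i at 0.24 and Il1rn, the interleukin 1 receptor antagonist, at 0.36. Cxcl9 stood at 10.26, 10.39 and 9.66 in EAE and 6.39, 6.50 and 6.75 in OVA. Lcn2 had no close match. Its nearest genes were the Y-linked Uty, Ddx3y and Kdm5d, at 0.40, 0.41 and 0.45. Hp was nearest to Mmp25, a membrane protease of leukocytes, at 0.26, to the division marker Mki67 at 0.27 and to Atp8b4 at 0.27. Mki67 stood at 9.47, 9.51 and 9.29 in EAE and 8.09, 8.24 and 10.81 in OVA. Fpr2 was nearest to Plac8, a gene of monocytes and granulocytes, at 0.16, then to the urokinase receptor gene Plaur and to Slfn2 at 0.20 each. For Fpr1 they were Tmem154, Uhrf1 and Acpp at 0.06 each, and for Ptx3 Pgam1 at 0.06 and Rplp2 and Hoxb4 at 0.07 each.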

How the data were processed

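RNA sequencing of O4-captured mouse brain cells was analysed in 3 EAE pools and 3 OVA samples, grouped by the treatment label, with replicate numbers in the order of the deposited samples. Libraries used the TruSeq Stranded mRNA kit, per the labels' protocols. Tools listed without a role are DESeq2 1.24.0, Subread 1.6.1, STAR 2.6.1c, cutadapt 1.18 and bcl2fastq 2.17, with build GRCm38, per the submitters' processing notes. The deposited table holds the authors' rlog values on a log2 scale, which shrink low counts towards the gene's mean. It gives no read totals, so depth and counting error are unknown and precision rests on the samples. The sources used here do not say whether the groups entered the rlog.

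Of 55298 identifiers, 55117 matched a GENCODE M21 symbol without the version suffix. Where identifiers shared a symbol, the 1 with the highest mean was used. Genes at 0 in every sample (25244) or with a mean under 3 were left out, which left 18161. limma 3.58.1 in R 4.3.3 (empirical Bayes with an intensity trend, two-sided) compared EAE with OVA across all tested genes, with Benjamini-Hochberg adjustment and a threshold of 0.05. The fit was tested on simulated data. Nothing in the labels says that samples came from separate preparations beyond the mice named, and a pool averages its mice, so p-values measure the spread between these samples.

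The members and the gene lists were chosen with earlier results of these data known. Named are all 6 members and their families, up to 4 called genes per list by size plus 1 of opposite direction (the 2 smallest p where none passed), the 3 genes most like each member, and Csf3r, S100a8, S100a9, Ltf, Ngp, Camp, Ly6g, Anxa1, Il1b, Gfap, Ptprc and Mbp. Some are left out for length, and other genes are named beside a result they touch. Alternatives were the filter, the moderation, sample weights, the scaling between samples and leaving out each sample. Promoters came from RefSeq (GRCm38.p6), cut to the 250 bases before the start.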

Additional observations from a re-analysis of the deposited data

How the results depend on the processing

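Alternatives that keep all 6 samples moved the difference of each of the 6 genes by less than the larger of its group SDs. With 3 samples a group, leaving out 1 cannot move a difference by that much, so no such comparison is drawn there. For Hp, Fpr1 and Fpr2 the larger SD was that of OVA, at 1.28, 0.66 and 0.95, with OVA replicate 3 included. Without OVA replicate 3 the difference of Hp went from 0.63 to 1.37 and that of Fpr2 from 1.01 to 1.56. Both were then called higher, beside 4.68% of all tested genes. Without OVA replicate 1 the differences were 0.18 for Hp and 0.68 for Fpr2. The difference of Fpr1 changed sign without OVA replicate 3 (0.33), without EAE replicate 3 (0.08), with weights by number of mice (0.02) and with array quality weights (0.22). Saa3 was called higher in all 14 alternative fits. These fits reuse the same samples, and nothing is read from the calls, since the gene was named with this contrast known. With array quality weights, whose estimation stopped before it converged, 2858 tested genes were called higher and 2233 lower, and 4 of the 6 genes higher and 1 lower, and the cause was not tested. Leaving out 1 sample gave between 24 (without EAE replicate 2) and 850 (without OVA replicate 3) genes higher, between 1 and 346 lower with the same samples left out, and between 1 and 3 of the 6 genes called higher. The other such counts were 84, 99 and 30 higher without EAE replicate 1, OVA replicate 1 and OVA replicate 2, with 18, 33 and 7 lower, and 45 lower without EAE replicate 3. Of 336 counts of called genes per list under alternatives that keep all samples, 309 were within 1.5 times the value given, 22 were higher (21 of them with array quality weights) and 5 lower. The lower ones are counts of formyl peptide receptor signalling genes (no filter, minimum mean of 5, no trend), inducing cytokines (no trend) and transcription factors (no filter). No paired analysis was possible because the replicate numbers follow the order of deposit and tie no EAE pool to an OVA sample. The rlog limits what can be seen of weakly expressed genes such as Ptx3 and Fpr1, and how far it shrank their differences is unknown without counts.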
